A study of Mus musculus with 9 samples.

Results

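The C/EBP transcription factors and the feedback partners of ATF4 were followed in mouse dorsal root ganglia (DRG) after sciatic nerve transection. The set held 10 genes: Cebpa, Cebpb, Cebpd, Cebpg, Atf5, Trib1, Trib2, Trib3, Nupr1 and Ddit4. It was found by gene symbol, older symbol or RefSeq identifier among the array's annotated probes, and every probe of each gene was kept, which gave 16 of the 41174 probes and 10 of the 27671 gene or transcript names on the array. The tissue was L3/L4 DRG of adult mice that the labels give as cre.neg and jun.wt, that is, without Cre and wild type for Jun in both groups. The 5 injured samples carry the treatment label lesion and were taken 3 days after transection, while the 4 uninjured samples carry the label control. The source field of the controls names the same transection and day, the study's methods call the control ganglia uncrushed, and its results text gives a shorter interval than its methods and labels do. The labels name no animals, strain or age, so p-values measure the spread between these samples, which may in part be technical.

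ATF4 is the transcription factor whose translation rises when phosphorylation of eIF2α slows general protein synthesis, a state known as the integrated stress response. It binds DNA as a dimer, often with a C/EBP family member, at composite sites that join part of a C/EBP site to part of an ATF site. C/EBPα, C/EBPβ and C/EBPδ are activators of differentiation and of acute-phase and cytokine genes, C/EBPγ lacks a strong activation domain and pairs with ATF4, and ATF5 is a relative of ATF4 that is also under translational control. Tribbles proteins are pseudokinases: TRIB1 and TRIB2 bring C/EBPα to the ubiquitin ligase COP1, and TRIB3 is made under ATF4 and CHOP and restrains both. NUPR1 is a small chromatin-associated stress protein, and DDIT4 (REDD1) restrains the growth kinase complex mTORC1.

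Promoter windows from RefSeq on build GRCm38.p6, each reaching from 250 bases before to 50 bases after a transcript's start, were available for 8 of the 10 genes, in 9 windows. Cebpd and Trib1 had no window, so the Tribbles genes could not be compared as a family. They were searched on both strands for TGATGNAA (a C/EBP-ATF composite site), TTGCGCAA (a C/EBP palindrome), TGACGTCA (a cyclic AMP response element) and TGACTCA (an AP-1 site). These 4 strings do not contain one another. Over all 32851 windows, TGATGNAA was present in 3.97%, TTGCGCAA in 0.183%, TGACGTCA in 1.79% and TGACTCA in 5.20%. Among the members, TGATGNAA was found in the windows of 2 genes, Trib3 and Nupr1, and the other strings in the windows of 0 genes. Parts of the windows are printed: the 250 bases before the start for Nupr1 and Trib2, and for Trib3 these and the bases after the start up to the end of the match, 272 bases in all. Those of Trib3 and Nupr1 are shown because they hold the composite string, in Trib3 at 15 bases after the start and in Nupr1 at 110 bases before it, in both on the strand opposite to the motif as spelled above; that of Trib2 is shown because this gene moved the other way from its family. Capitals mark the match, and a match is a description of letters, not of binding. Trib3 lies on the minus strand at chr2:152344039-152344310, Nupr1 on the minus strand at chr7:126625471-126625720, and Trib2 on the minus strand at chr12:15816786-15817035.
Trib3: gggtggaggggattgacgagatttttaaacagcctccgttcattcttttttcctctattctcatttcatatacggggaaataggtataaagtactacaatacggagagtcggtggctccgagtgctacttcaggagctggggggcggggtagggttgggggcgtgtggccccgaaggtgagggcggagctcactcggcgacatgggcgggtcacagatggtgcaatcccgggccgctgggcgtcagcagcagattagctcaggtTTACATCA
Nupr1: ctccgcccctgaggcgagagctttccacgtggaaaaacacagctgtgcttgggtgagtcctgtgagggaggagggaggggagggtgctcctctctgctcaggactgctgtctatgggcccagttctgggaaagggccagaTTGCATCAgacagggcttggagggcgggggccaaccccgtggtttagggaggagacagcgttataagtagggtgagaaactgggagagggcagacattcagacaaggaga
Trib2: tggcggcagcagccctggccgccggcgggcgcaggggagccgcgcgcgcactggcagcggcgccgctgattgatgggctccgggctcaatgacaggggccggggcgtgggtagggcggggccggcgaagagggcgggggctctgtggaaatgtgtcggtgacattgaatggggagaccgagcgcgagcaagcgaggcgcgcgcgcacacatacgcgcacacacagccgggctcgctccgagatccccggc

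On every 2-colour array Cy5 marked the DRG sample and Cy3 a common mouse reference RNA, the dyes were never swapped, and each value below is a log2 ratio of sample over reference for 1 probe. A negative ratio means less signal than in the reference and says nothing about how one gene compares with another. The number of arrays limits the precision. Median Cy5 signal lay between 200 and 231 on uninjured and between 156 and 238 on injured arrays, and 71.0% to 78.9% of spots were above background in Cy5. Injured array 5 was the lowest of all in both. It also had the lowest weight (0.349) where limma weighted the arrays by how closely they followed their group. The arrays lay on 3 slides, with uninjured arrays 2, 3 and 4 on slide 1, uninjured array 1 with injured arrays 1, 2 and 5 on slide 2, and injured arrays 3 and 4 on slide 3, so that slide and injury are for the most part confounded. All 12 neuronal markers examined, Tubb3 and Prph among them, had more signal in DRG than in the reference on the uninjured arrays (mean log2 ratios from 2.15 to 7.59). In bulk ganglia, fewer cells of a type and less RNA per cell cannot be told apart.

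After transection, 6 of the 10 genes rose by their brightest probe, 1 fell and 3 did not pass the test (limma, adjusted p under 0.05 over all 31186 probes tested). The brightest probe of a gene is the one with the highest mean log2 signal of both channels, the reference included. Cebpd, Trib3, Cebpb, Trib1, Atf5 and Cebpg rose, Trib2 fell, and Cebpa, Nupr1 and Ddit4 did not pass. By probe, all 16 were above background in Cy5 on all 9 arrays and were tested; 10 passed, where 23.5% of all probes tested did. Of these, 8 were higher in injured DRG, against 10.5% of all probes, and 2 were lower, against 13%. In the same 8 probes every injured array lay above every uninjured array, which held for 10.1% of all probes, and with the 2 probes of Trib2 the groups did not overlap in 10 of 16, against 22.6% of all probes. The members were not chosen blind to these results, so these counts carry no test. Over the 16 probes the median log2 fold change was 0.32, and over all probes tested it was −0.0045. In the Cy3 reference channel, where the same RNA was on every array, 0 of the 16 probes passed by limma (differences between −0.10 and 0.07, lowest adjusted p 0.456, with 1 probe, that of Cebpd, at an unadjusted p under 0.05).

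**Figure D1:**
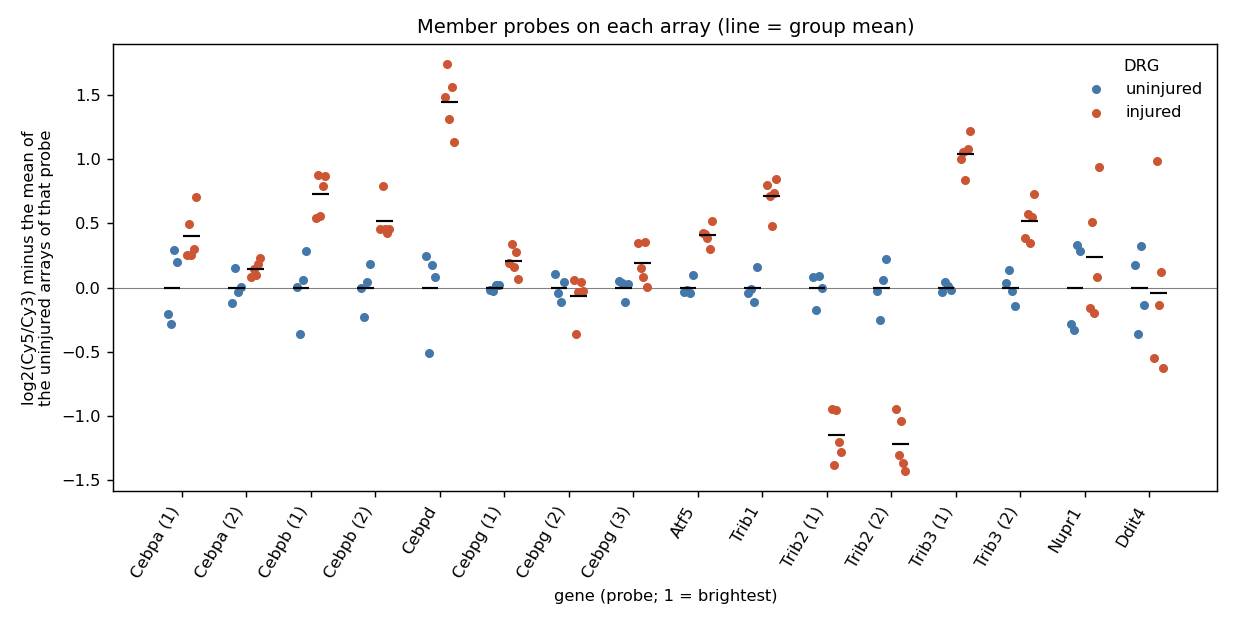
Log2 ratio of each of the 16 member probes on each array, minus the mean of the 4 uninjured arrays of that probe; points are arrays, horizontal lines are group means, and probe 1 is the brightest of a gene. The injured arrays lie above all uninjured arrays in 8 probes and below them in both Trib2 probes, and the groups overlap in the other 6.

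Cebpd, which encodes the inflammation-inducible C/EBPδ, had the largest rise among the members. Its probe (A_51_P444447, mm7 chr16:15431723-15431782, plus strand) read −1.62, −2.38, −1.69 and −1.78 on uninjured arrays 1 to 4 and −0.38, −0.13, −0.55, −0.30 and −0.73 on injured arrays 1 to 5. The lowest injured value lay well above the highest uninjured one, and uninjured array 2 was the lowest of all. The uninjured mean was −1.86 ± 0.347 (SD, n = 4) and the injured mean −0.42 ± 0.231 (SD, n = 5). This gave a log2 fold change of 1.45 (SE 0.163), or 2.73-fold. The adjusted p was 0.000133 by limma and the two-sided exact permutation p was 0.00794, the smallest that the 126 splits of the arrays allow. In the Cy3 reference channel this probe differed by −0.08 between injured and uninjured arrays (unadjusted p 0.0164 by limma), which raises the ratio. With the Cy5 channel alone the log2 fold change was 1.35. Within slide 2, where 1 uninjured array stands against 3 injured ones, the difference was 1.21. With slide as a fixed block, which rests on that comparison, the limma call ended at an adjusted p of 0.0536, the highest of its alternatives, which went down to 1.22e-05.

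Cebpb encodes C/EBPβ, which is made as activating and inhibitory protein forms from 1 transcript. The brighter probe (A_52_P63553, mm7 chr2:167483001-167483059, plus strand) read −2.99, −3.36, −2.93 and −2.71 on the uninjured arrays and −2.46, −2.12, −2.44, −2.21 and −2.13 on the injured arrays. The groups did not overlap, and injured arrays 2 and 5 were the highest. The log2 fold change was 0.73 (SE 0.126, 1.66-fold), with an adjusted p of 0.00205 by limma. The other probe (A_52_P605846, mm7 chr2:167482463-167482522, plus strand) read −3.17, −3.40, −3.13 and −2.99 on the uninjured and −2.71, −2.38, −2.72, −2.75 and −2.71 on the injured arrays. It too had no overlap between the groups and rose by 0.52 (SE 0.100, adjusted p 0.00382 by limma). The probes of Cebpb did not differ from each other beyond the spread between arrays (difference of 0.21 ± 0.088, SE, exact permutation p adjusted over 11 comparisons 0.0982). On slide 2 the brighter probe differed by 0.75, and with slide as a fixed block both probes lost their limma calls, at adjusted p of 0.121 and 0.126, the highest over their alternatives. The rise of Cebpd exceeded that of Cebpb by 0.72 (SE 0.158), with an exact permutation p of 0.0159 and 0.0291 adjusted over the same 11 comparisons, a pair taken up after their values were seen.

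Cebpg, which encodes the ATF4 partner C/EBPγ, gave a small change that passed the test in its brightest probe only. Its brightest probe (A_52_P121675, mm7 chr7:31936790-31936849, minus strand) read −0.91, −0.92, −0.87 and −0.87 on the uninjured arrays and −0.70, −0.55, −0.73, −0.62 and −0.82 on the injured arrays. The groups were separate, with injured array 5 nearest to the uninjured range. The log2 fold change was 0.21 (SE 0.0647), with an adjusted p of 0.0401 by limma. This call ended when any 1 array other than injured array 5 was left out (adjusted p from 0.0515 to 0.0995 by limma) and in 17 of 25 alternatives in all, whose adjusted p ran from 0.0111 to 0.603. The other probes, A_52_P438082 (mm7 chr7:31939516-31939575) and A_51_P521216 (mm7 chr7:31935956-31936015), had log2 fold changes of 0.19 and −0.06, with adjusted p of 0.137 and 0.676 by limma. The second of these was 0.03 on injured array 2 and between 0.28 and 0.49 on the other 8 arrays. In Cy5 alone, A_52_P438082, which did not pass, was brighter than the probe ranked brightest over both channels. Its mean log2 Cy5 signal was 9.52 on uninjured and 9.58 on injured arrays, against 9.25 and 9.44. The change of the brightest probe differed from that of A_52_P438082 by 0.02 (SE 0.0773) and from that of A_51_P521216 by 0.27 (SE 0.123). Neither difference was beyond the spread between arrays (exact permutation p adjusted over 11 comparisons 0.833 and 0.0748). The rise of Cebpb exceeded that of the brightest Cebpg probe by 0.52 (SE 0.147, exact permutation p 0.0175 adjusted over 11 comparisons).

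Cebpa, which encodes C/EBPα, a Tribbles substrate, did not pass the test. Its brightest probe (A_52_P168567, mm7 chr7:32011212-32011271, plus strand) read −0.76, −0.83, −0.26 and −0.35 on the uninjured arrays and −0.30, −0.06, −0.29, −0.25 and 0.16 on the injured arrays. Uninjured arrays 3 and 4 lay next to the lower injured arrays, and 3 of 5 injured arrays were above all uninjured ones. The log2 fold change was 0.40 (SE 0.139, adjusted p 0.0598 by limma), and it passed without uninjured array 3 (0.50, adjusted p 0.0339), with the average of the gene's probes and with slide as a random block, while over all its alternatives the adjusted p ran up to 0.223. The average takes in the gene's other probe, which lay close to the floor. The random block used a correlation within slides of −0.202, and with it 10338 of the 31186 probes tested were called, against 7337 in the main fit. With array weights, which count injured array 5 least, the log2 fold change of the brightest probe was 0.30 (adjusted p 0.105 by limma). The other probe (A_51_P214087, mm7 chr7:32010056-32010115, plus strand) had a log2 fold change of 0.15 (SE 0.0674, adjusted p 0.142 by limma).

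Atf5 rose by a modest amount with little spread. Its probe (A_51_P269216, mm7 chr7:40986870-40986929, minus strand) read −1.84, −1.83, −1.86 and −1.72 on the uninjured arrays and −1.39, −1.39, −1.42, −1.51 and −1.29 on the injured arrays. The highest uninjured array lay below the lowest injured array. The log2 fold change was 0.41 (SE 0.0618, 1.33-fold), with an adjusted p of 0.00085 by limma and a difference of 0.49 within slide 2. The limma call held with slide as a fixed block (adjusted p 0.0447) and ended with median centring of the arrays in place of loess (0.29, adjusted p 0.143, the highest over its alternatives, of which the lowest was 0.000174).

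The Tribbles genes moved in opposite directions: Trib1 and Trib3 rose and Trib2 fell. Trib1 (A_52_P573552, mm7 chr15:59722645-59722704, plus strand) read −1.80, −1.77, −1.87 and −1.60 on the uninjured arrays and −0.96, −1.04, −1.28, −1.02 and −0.92 on the injured arrays. All 5 injured arrays were above all uninjured ones, with injured array 3 the lowest of them. The log2 fold change was 0.72 (SE 0.0855, 1.64-fold, adjusted p 0.000198 by limma), and the difference within slide 2 was 0.83.

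Trib2 had probes at mm7 chr12:15846618-15846677 (A_52_P220810, the brighter) and chr12:15847613-15847670 (A_51_P103819), both on the minus strand. The brighter read 1.76, 1.51, 1.77 and 1.68 on the uninjured arrays and 0.74, 0.30, 0.73, 0.48 and 0.40 on the injured arrays. The other read 1.37, 1.14, 1.45 and 1.62 on the uninjured and 0.45, 0.09, 0.36, 0.03 and −0.03 on the injured arrays. In both, every injured array lay below every uninjured array, and injured arrays 1 and 3 had fallen least. The log2 fold changes were −1.15 (SE 0.104, adjusted p 2.91e-05 by limma) and −1.22 (SE 0.122, adjusted p 6.14e-05), so that the brighter probe was 2.22-fold higher in uninjured than in injured DRG. The probes did not differ beyond the spread between arrays (difference of 0.07 ± 0.0887, SE). Within slide 2 the differences were −1.28 and −1.20. Of all probes tested, 99.9% had a higher log2 fold change than either probe.

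Trib3 had its brighter probe (A_51_P331570, mm7 chr2:152078476-152078535, minus strand) at −3.84, −3.76, −3.79 and −3.83 on the uninjured arrays and at −2.81, −2.75, −2.97, −2.73 and −2.59 on the injured arrays. The uninjured arrays had an SD of 0.0358 and lay far below the injured arrays. The log2 fold change was 1.04 (SE 0.0750, 2.05-fold), with an adjusted p of 6.24e-06 by limma, and 1.13 within slide 2. The other probe (A_52_P600274, mm7 chr2:152079146-152079205, minus strand) read −2.44, −2.34, −2.51 and −2.62 on the uninjured and −2.09, −1.91, −2.13, −1.93 and −1.75 on the injured arrays. Its groups did not overlap either, and its log2 fold change was 0.52 (SE 0.0890, adjusted p 0.00196 by limma), a call that ended with slide as a fixed block (adjusted p 0.115, the highest over its alternatives). The probes of Trib3, which carry different RefSeq identifiers in the array annotation, differed in their change by 0.52 (SE 0.0556, exact permutation p 0.0175 adjusted over 11 comparisons).

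The change of Trib1 exceeded that of Trib2 by 1.87 (SE 0.160) and that of Trib3 exceeded that of Trib2 by 2.19 (SE 0.158). Every injured array was above the uninjured ones for Trib1 and Trib3 and below them for Trib2. The groups therefore had to separate in these differences. Their exact permutation p of 0.0175, adjusted over the same 11 comparisons, is thus no test of them. All 11 comparisons were set up with the values known. Trib3 exceeded Trib1 by 0.32 (SE 0.0725, exact permutation p 0.0175 adjusted), while the second probe of Trib3 had a log2 fold change of 0.52 against 0.72 for Trib1, a pair not tested. Trib1, both Trib2 probes and the brighter Trib3 probe kept their direction and their limma call in every alternative run, with log2 fold changes between 0.66 and 0.83, between −1.45 and −1.03 and between 0.78 and 1.14.

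**Figure D2:**
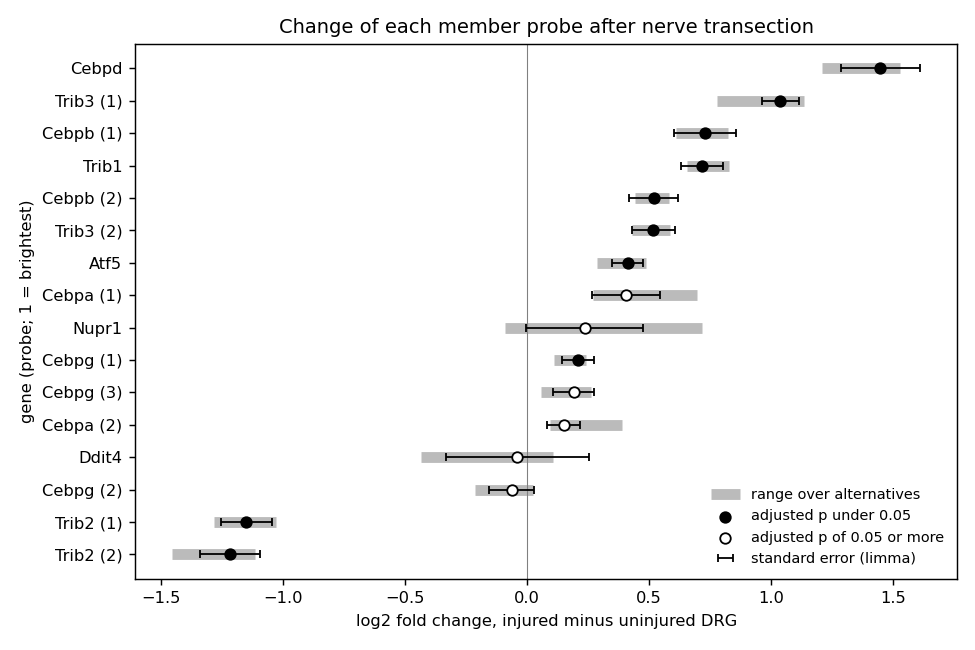
Log2 fold change (injured minus uninjured DRG) of each member probe from limma; filled points have an adjusted p under 0.05, black bars are standard errors, and grey bands span the values under the alternative settings. Cebpd is at 1.45 and the Trib2 probes are at −1.15 and −1.22, and the grey bands of Nupr1, Ddit4 and the second Cebpg probe cross 0.

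Nupr1 and Ddit4, both stress-inducible genes, varied more between arrays of a group than between the groups. Nupr1 (A_51_P519251, mm7 chr7:122720022-122720081, minus strand) read −3.48, −3.52, −2.86 and −2.91 on the uninjured arrays and −3.35, −2.68, −3.39, −3.11 and −2.25 on the injured arrays. The groups overlapped, and injured arrays 2 and 5 were above all uninjured ones. Its log2 fold change was 0.23 (SE 0.241, adjusted p 0.535 by limma), and it was −0.09 without injured arrays 2 and 5. Leaving out these 2 highest arrays had to lower the change, and the setting was added after the values were seen. With array weights, which count injured array 5 least, the log2 fold change of Nupr1 was 0.08.

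Ddit4 (A_51_P245796, mm7 chr10:59467933-59467992, minus strand) read −1.38, −1.93, −1.24 and −1.70 on the uninjured arrays and −2.11, −0.58, −1.69, −1.44 and −2.18 on the injured arrays. Injured array 2 was the highest of all 9 arrays and injured arrays 1 and 5 the lowest. The SD was 0.648 in the injured and 0.309 in the uninjured group, and the log2 fold change was −0.04 (SE 0.292, adjusted p 0.943 by limma), with a sign that depended on single arrays (from −0.30 to 0.10 when each was left out).

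Marker lists of other cells differed between arrays of the same group. Counts of markers that rose or fell by limma are to be read beside the 10.5% and 13% of all probes tested that did so. These shares are over probes, while the lists here and below count the brightest probe of each gene. With only that probe of each gene in the fit, 5308 of 20899 genes were called, 2399 of them higher. No share of all probes was taken at an unadjusted p, here or for the lists of related genes below. A list's mean is given as the log2 ratio minus the uninjured mean of each gene, averaged over its genes. For the macrophage list, of which 3 of 12 genes rose (8 at an unadjusted p under 0.05), it was −0.14, −0.41, 0.20 and 0.36 on uninjured arrays 1 to 4 and 0.09, 1.09, 0.36, 0.48 and 1.00 on injured arrays 1 to 5. Thus uninjured arrays 3 and 4 and injured arrays 2 and 5, where Nupr1 was highest, also had high macrophage values for their group, and uninjured arrays 1 and 2, where Nupr1 and Cebpa were lowest among the uninjured, had low ones. The neutrophil list (1 of 6 tested genes rose) lay between −0.44 and 0.52 on uninjured arrays and was 0.58, 3.16, 0.53, 1.67 and 0.73 on the injured arrays. The muscle list (0 of 6 passed) lay between −0.06 and 0.10 on uninjured arrays and was 2.19 and 3.67 on injured arrays 2 and 4 and at most 0.35 on the other injured arrays, and the red blood cell list (0 of 4 tested) reached 1.42 on injured array 2 and 1.03 on injured array 5. Adipocyte and fibroblast lists (0 of 6 passed in each) ranged from −1.16 to 0.86 and from −0.57 to 0.52 on uninjured arrays and from −0.17 to 1.44 and from −0.05 to 0.74 on injured arrays. Of the sensory neuron list 3 of 12 genes fell, of satellite glia 1 of 6 rose, of myelinating Schwann cells 0 of 6 passed and of dividing cells 1 of 6 rose. Their means lay between −0.08 and 0.08, −0.16 and 0.13, −0.46 and 0.33, and −0.05 and 0.02 on uninjured arrays and between −0.29 and 0.04, 0.00 and 0.47, −0.13 and 0.59, and −0.01 and 0.58 on injured arrays. Every marker tested was above background on at least 8 of 9 arrays, and Elane and Lep were among the markers too dim to be tested. Without injured arrays 2 and 4, where the muscle list was high, 9 member probes were called, and without injured arrays 2 and 5 it was 10. Of all 31186 probes tested, 4040 and 5849 were called in these settings, which were added after the values were seen. At an unadjusted p under 0.05 by limma, 5 neutrophil, 3 red blood cell, 2 Schwann cell, 1 muscle, 1 adipocyte and 0 fibroblast markers were higher and 0 were lower, 2 satellite glia and 1 dividing cell markers were higher, and 5 of 12 sensory neuron markers were lower. Within each group, the brighter Cebpb probe ordered the arrays as the macrophage list did. The other Cebpb probe did so on the uninjured but not on the injured arrays, where injured array 4 was its lowest (−2.75). Without injured arrays 2 and 5 the log2 fold change of the brighter probe was 0.63 and still passed by limma (adjusted p 0.0134, within a range of 0.000278 to 0.121 over its alternatives). The part of other cells in the values of Cebpb, Nupr1, Cebpa and Ddit4 was not tested.

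**Figure D3:**
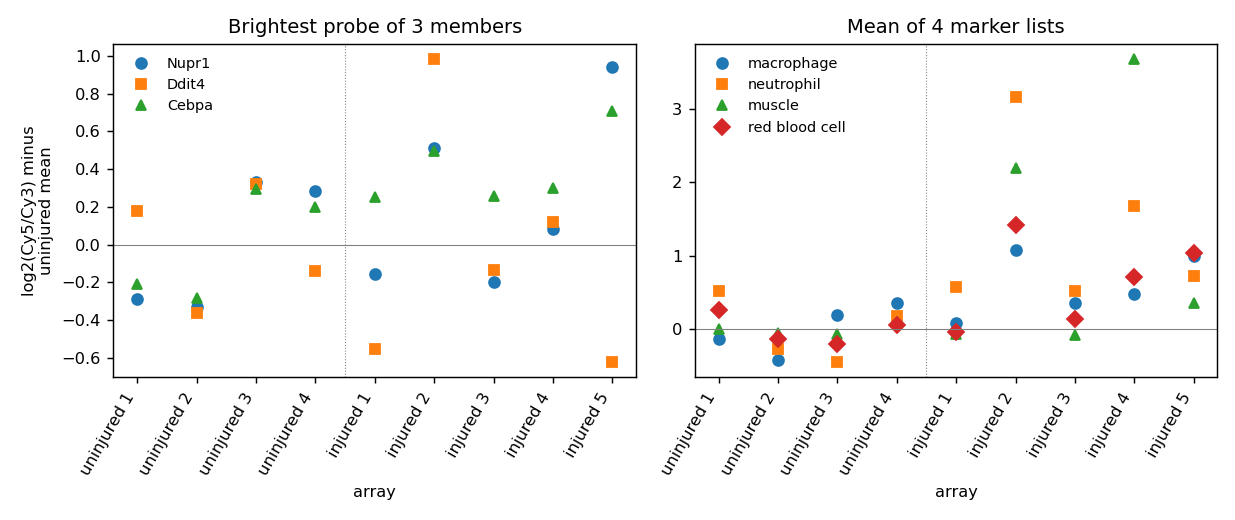
Left, log2 ratio of the brightest probe of Nupr1, Ddit4 and Cebpa on each array minus its uninjured mean; right, mean of the macrophage, neutrophil, muscle and red blood cell marker lists on the same arrays and scale, with its own axis range. Injured array 2 has the highest Ddit4 value and the highest macrophage, neutrophil and red blood cell values, and injured array 5 has the highest Nupr1 and Cebpa values.

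Related genes were read from lists of the same circuits. In the ATF4 circuit, 12 of 19 tested genes rose and 0 fell by limma (14 and 0 at an unadjusted p under 0.05), with a median log2 fold change of 0.48, where 10.5% of all probes tested rose. With slide as a fixed block, 7 genes of this list and 4 of the next were called, where 1508 of the 31186 probes tested were. Atf4 itself rose by 0.58 (SE 0.0719, adjusted p 0.000237) and Ddit3, which encodes CHOP, by 0.70 (SE 0.0675, adjusted p 4.41e-05). The highest were Atf3, an injury-induced ATF factor (5.14), and Gadd45a, a growth arrest gene (3.50). The lowest that passed were the amino acid synthesis genes Asns (0.35) and Psat1 (0.40). Of the bZIP genes that can pair or compete with C/EBP factors, 8 of 14 rose and 1 fell (median 0.52). Beside Atf3, Nfil3 rose by 2.12 and Batf by 0.45, and Jdp2, which encodes an AP-1 repressor, fell by 0.28 on the log2 scale. Atf4, Ddit3 and Atf3 stand in both lists.

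Of the genes whose products work with Tribbles, 3 of 12 rose and 1 fell by limma, with a median log2 fold change of 0.07; the 4 called are to be read beside the 23.5% of all probes called. Cop1, the ubiquitin ligase, rose by 0.27 (SE 0.0621), Stk40, a Tribbles-like pseudokinase, by 0.45 (SE 0.112), and Akt1 by 0.23 (SE 0.0589), and Map2k4, a JNK pathway kinase, fell by 0.31 on the log2 scale. With slide as a fixed block, 0 genes of this list passed by limma (4 at an unadjusted p under 0.05), and without injured arrays 2 and 4 it was 1. Of the 31186 probes tested, 1508 and 4040 passed in these settings. Of the mTORC1 genes, 3 of 15 rose and 1 fell (median −0.01), a share near the 23.5% of all probes called. By brightest probe per gene, 5308 of 20899 genes were called. Eif4ebp1, a translation repressor and ATF4 target, rose by 1.10 and Sesn2, an mTORC1 inhibitor and ATF4 target, by 1.06, Akt1s1 rose by 0.48 and Sesn1 fell by 0.33 on the log2 scale. Eif4ebp1 and Sesn2 also stand in the ATF4 list. Without injured arrays 2 and 4, 2 of the mTORC1 genes passed, where 4040 of the 31186 probes tested did.

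Genes known as C/EBP targets rose in 9 of 13 tested cases and fell in 0 by limma (11 and 0 at an unadjusted p under 0.05), with a median of 0.83. Of all probes tested, 10.5% rose and 13% fell by limma. With slide as a fixed block, 3 genes of this list were called, where 1508 of the 31186 probes tested were. At an adjusted p under 0.001 by limma it was 4 genes, where 1607 of the 31186 probes passed. Il6, a cytokine gene, rose by 2.38 (SE 0.0879), and its injured arrays lay between 0.47 and 0.83 against −1.81 to −1.61 for the uninjured. Hp, which encodes haptoglobin, rose by 1.46 (SE 0.476, adjusted p 0.0474 by limma), with injured arrays from −1.24 to 1.48 and uninjured arrays from −2.34 to −1.28. The lowest that passed were Pparg, a nuclear receptor gene of adipocytes and macrophages (0.31), and Il1b, a cytokine gene, at 0.61. The Il1b probe was above background in Cy5 on 1 of 4 uninjured and 5 of 5 injured arrays. That of Csf3r, which was tested but not called, was so on 1 of 4 and 4 of 5. Both passed the filter only through their injured arrays, so the Il1b call lends the count no support and its size is uncertain. With a stricter filter on dim probes, 8 genes of the list were called, where 6616 of 25875 probes tested were. The list's mean was 0.66, 1.60, 0.71, 0.97 and 0.94 on injured arrays 1 to 5, highest on injured array 2, which also had the highest neutrophil and macrophage values; the list holds the macrophage markers Cd14 and Lyz2 itself, and the part of those cells was not tested.

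**Figure D4:**
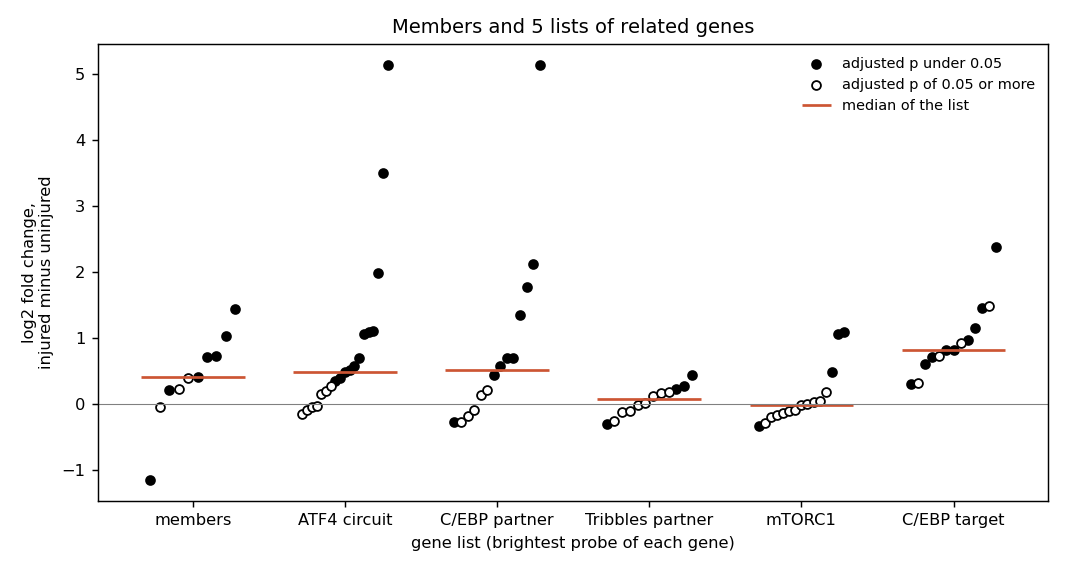
Log2 fold change (injured minus uninjured) of the brightest probe of each gene for the 10 members and for 5 lists of related genes; filled points have an adjusted p under 0.05 by limma, and the line is the list's median. The C/EBP target list has the highest median (0.83), the Tribbles partner and mTORC1 lists lie near 0 (0.07 and −0.01), and Atf3 at 5.14 is the highest gene.

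The gene patterns most like that of Cebpd, by Pearson correlation of the brightest probes over the 9 arrays, were Plat, a plasminogen activator (r = 0.995), Marcks, an actin-binding protein kinase C substrate (r = 0.993), and Chmp1b, a component of the ESCRT membrane machinery (r = 0.993). Their log2 fold changes were 0.83, 0.84 and 1.25. The points share the same RNA samples, arrays and reference, and both groups enter the correlation, so it is given as a description.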

How the data were processed

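The deposited intensities give, for each channel, the mean brightness of a spot and the median of its local background. Agilent Feature Extraction (10.5.1.1) also wrote log10 ratios there, per the file headers with its own background and dye correction. The authors' own table holds log2 ratios of Cy5 to Cy3 that they had corrected for background and normalized array by array; their notes name limma, and the column medians lay between 0.0202 and 0.024. Which correction the authors used is not given in the sources used here. Their direction, checked against the scanner files, was the same (slope 1.00 to 1.01). Both were used as alternatives.

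From the intensities, limma 3.58.1 (R 4.3.3) was used for normexp background correction with an offset of 50, loess within each array with control spots at weight 0, and the average of repeated spots. Spots that Agilent marks as non-uniform were left out, since on injured array 2 some had Cy5 far below local background and distorted the background fit. The 31186 probes with Cy5 above background on 4 or more arrays were tested by lmFit and eBayes with Benjamini-Hochberg adjustment at 0.05. Single probes also had two-sided exact permutation tests over the 126 splits of the arrays. The procedure was tested on simulated data. Figures used Python 3.11.15 and matplotlib 3.10.9. Probe positions, on build mm7, come from the array annotation; no annotation of that build was used, so the place of a probe in its transcript is not given.

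The members, the lists and the tests were chosen with earlier results of these data known. Named genes are all members, the 2 highest and 2 lowest called genes of each list, Atf4 and Ddit3, the 3 genes most correlated with the called member of largest change, and markers beside a result. Slc7a11, Ptgs2 and Elane were too dim to be tested, and Cebpe and Ly6g matched no probe. Alternatives changed the background correction, normalization, ratio source, filter, slide block, array weights, unit of the fit, threshold or arrays used; leaving out injured arrays 2 and 4, or 2 and 5, was added after the values were seen.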

Additional observations from a re-analysis of the deposited data

Results flagged for a closer look

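In 5 of 62 groups of values tested, 1 array lay far from the rest by Dixon's criterion, which chance alone gives in about 1 of 20 groups. Injured array 2 was high for the second Cebpb probe (A_52_P605846), at −2.38, and low for a Cebpg probe (A_51_P521216), at 0.0257. Uninjured array 3 was low for another Cebpg probe (A_52_P438082), at −0.47, and low for the mean of the dividing cell list, at −0.0533. Uninjured array 4 was high for Atf5, at −1.72, and still below every injured array.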

How the results depend on the processing

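Of 27 alternatives, those that changed only the threshold gave no new log2 fold change. The others gave 25 values for a gene's brightest probe and 23 for any other member probe. Of these 388 values, 351 kept direction and side of the threshold, 23 lost a call, 5 gained one and 9 changed sign. The sign changes concerned probes that did not pass: Cebpg A_51_P521216 was 0.011 without injured array 2, 0.000901 without injured arrays 2 and 4 and 0.023 without 2 and 5 (−0.099 to 0.011 leaving out each array), Nupr1 was −0.092 without injured arrays 2 and 5, and Ddit4 was 0.0027 with slide as a random block and between −0.30 and 0.10 when each array was left out (positive without injured array 1 or 5 or uninjured array 1 or 3). Of the 10 member probes called, 5 stayed with slide as a fixed block, 6 with a change above 1.5-fold and 6 at an adjusted p under 0.001, and 9 to 10 were called when each array was left out. All probes called, 7337, became 3523 with median centring, 1508 with the slide block, 1627 above 1.5-fold, 1607 at 0.001 and 4040 without injured arrays 2 and 4 (5377 to 7481 leaving out each array). The share of calls that were higher was 44.6% and became 55.6% with the slide block. In the ATF4 circuit, 12 calls became 7 with the slide block and 7 above 1.5-fold (12 to 13 leaving out each array). For C/EBP partners 9 became 4 with the slide block and 6 above 1.5-fold or at 0.001 (9 to 10), and for C/EBP targets 9 became 3 with the slide block and 4 at 0.001 (8 to 10). For Tribbles partners 4 became 1 with median centring, 2 with Cy5 alone, 0 with the slide block, above 1.5-fold and at 0.001, 1 without injured arrays 2 and 4 and 2 without 2 and 5 (2 to 4, the lowest without uninjured array 1). For mTORC1 4 became 2 with median centring, 7 with a random slide block, 2 above 1.5-fold, 2 at 0.001 and 2 without injured arrays 2 and 4 (3 to 4). The stricter thresholds lower counts by construction and the slide block leaves 1 control array to carry the comparison; the cause of the others was not tested. No paired analysis was possible because neither replicate numbers nor animals in the labels tie injured to uninjured samples. All member probes were above background in Cy5 on every array, but the second Cebpa probe (A_51_P214087) lay close to the floor, and its log2 fold change of 0.15 was 0.39 with an offset of 0, 0.33 with Agilent's ratio and 0.09 without background correction, never past the threshold.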
